A study of Mus musculus with 53 samples.

Results

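The neurotrophin system was examined in the cortex of mouse embryos at stage E16.5 through 7 genes, chosen by name: the ligand genes Bdnf, Ntf3 and Ntf5, the Trk receptor genes Ntrk2 and Ntrk3, the p75 receptor gene Ngfr and the sortilin gene Sort1. All 7 were found among the 37991 gene IDs listed for this tissue, each with 1 entry. All 7 were above 0, against 64.3% of all IDs, and Ntf5 was so by an estimated 4 reads. That 64.3% also counts non-coding genes and IDs without a gene model. The share of protein-coding genes above 0, the closer comparison for these 7 genes, is not given here. The group used is whole cortical tissue of C57bl/6 embryos labelled as an unstimulated control, sequenced as 3 libraries. It is 1 of 19 groups, and the other 50 libraries of cultured neurons, astrocytes and adult hippocampus are not analysed here. The level of each gene is the authors' mean over the 3 libraries, so no value has an SD, no test between samples is possible and no p-value is given. The sources used here do not say whether the libraries came from separate animals or from pools of them.

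Neurotrophins are secreted growth factors that are made as longer precursors and cut to the mature form. Mature BDNF, the product of Bdnf, and neurotrophin-4, the product of Ntf5, bind the receptor tyrosine kinase TrkB (Ntrk2), while neurotrophin-3 (Ntf3) prefers TrkC (Ntrk3), and in developing cortex these signals act on the survival, growth and wiring of neurons. The p75 receptor (Ngfr) binds all of them, and together with sortilin (Sort1), which also sorts proteins inside the cell, it binds the uncut precursors.

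The 3 ligands are related in sequence, and the stretch of 60 coding bases in which they are most alike is shown because it bears on whether a read could be counted for the wrong ligand. Capitals mark bases that are the same in all 3, and the sequences were read from GENCODE M21 transcripts.
Bdnf: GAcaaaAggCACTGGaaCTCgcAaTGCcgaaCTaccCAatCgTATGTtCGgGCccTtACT
Ntf3: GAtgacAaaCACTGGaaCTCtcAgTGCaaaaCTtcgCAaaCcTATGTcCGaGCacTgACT
Ntf5: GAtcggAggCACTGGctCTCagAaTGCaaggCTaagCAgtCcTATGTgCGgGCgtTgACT
Of these 60 bases, 34 were the same in all 3 and the longest identical run was 6 bases. Bdnf and Ntf3 shared 43 of the 60, and Ntf5 shared 40 with either.
The receptors are more alike. In the same search, the closest stretch of Ntrk2 and Ntrk3 had 55 of 60 bases in common, with a longest identical run of 23 bases.
Ntrk2: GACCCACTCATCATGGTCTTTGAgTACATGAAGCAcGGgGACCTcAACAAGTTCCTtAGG
Ntrk3: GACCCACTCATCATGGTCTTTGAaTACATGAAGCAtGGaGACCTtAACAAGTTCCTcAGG

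No run of 50 bases in annotated transcripts was shared between any 2 of the 7 genes. Introns were not searched. Ntf3 shared none with any other annotated gene either. The share of distinct 50-base runs also found in another gene was below 1% for Ntf5 (0.538%), Ntrk2 (0.291%), Ntrk3 (0.529%) and Ngfr (0.854%). It was 3.81% for Sort1 and 12.7% for Bdnf, whose shared runs all lay in genes annotated on the opposite strand of the same locus (Gm12523 at Sort1 and Gm45346 at Bdnf). Gm12523 was listed at 0 RPKM, and no value for Gm45346 was used here. The sources used here give neither a strand setting nor a read length, so reads from Bdnf and from its antisense partner cannot be told apart.

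A further limit is the unit. The deposited values are reads per kilobase of gene and M reads (RPKM). The kilobases were taken to be those of the whole gene with its introns. For genes with several exons, 659 of 752 low values (87.6%) were within 0.5% of 1 read in 1 library with the gene's span. With its exon length, 36 of 583 (6.17%) were. The value of 1 read was itself found from the low values times span, and the exon length was scored against that same value. The comparison thus favours the span by construction, and the low exon share cannot reject the exon length. The span share shows only that low values times span gathered closely at the values so found. The 7 genes differ widely in how much of them is exon. Exons cover 76.1% of Ntf5, 18.2% of Ngfr, 11.9% of Bdnf, 9.78% of Sort1, 5.89% of Ntrk2, 5.37% of Ntrk3 and 2.62% of Ntf3. Each level is therefore also given per kilobase of exon, from the same reads and with all of them taken to lie in exons. Any reads from introns would make these values too high, and the share of such reads is not known. The same low values gave library sizes of 51.3, 64.8 and 71.6 M reads, together 188 M reads, from which the reads behind each gene were estimated. The intervals below are exact 95% Poisson intervals on those reads; they cover counting error only and say nothing of the spread between libraries.

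Sortilin and TrkB were the highest of the 7 genes per kilobase of exon, and the ligands Bdnf and Ntf5 were the lowest. As deposited, Sort1 was also highest and Bdnf and Ntf5 lowest, but Ngfr (0.541 RPKM) stood above Ntrk2 (0.497 RPKM). With the deposited values, 1 of 7 genes, Sort1, reached 1 RPKM, where 18.8% of all IDs and 31.6% of protein-coding genes did. Per kilobase of exon, 5 of 7 reached 1, where 35.5% of all genes with a known length and 54.1% of protein-coding genes did. Bdnf and Ntf5 were the 2 below it. The median of the 7 genes was 0.129 RPKM as deposited and 2.97 per kilobase of exon. Protein-coding genes above 0 had medians of 0.450 RPKM and 3.001 per kilobase of exon, so the middle of the family lay below that of protein-coding genes on the first scale and next to it on the second.

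**Figure D1:**
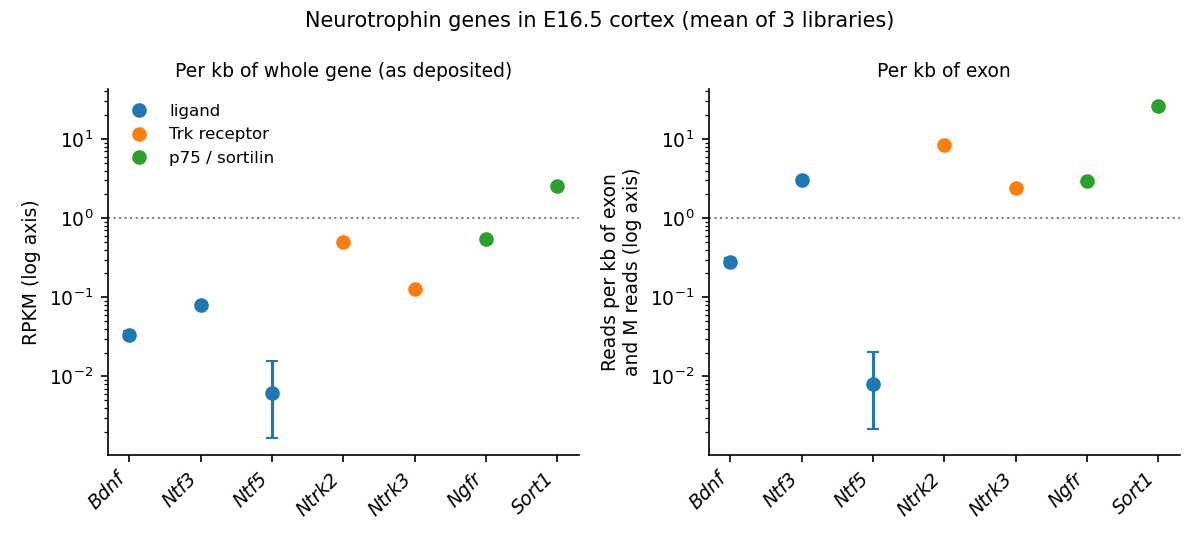
Level of each of the 7 genes in E16.5 cortex as deposited (left, RPKM, taken to be per kilobase of whole gene) and per kilobase of exon (right), both on log axes. Points are the authors' mean of 3 libraries, bars are 95% Poisson counting intervals, mostly smaller than the point, and the dotted line is 1: only Sort1 lies above it on the left, and 5 genes do on the right.

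Of the ligands, neurotrophin-3 had the highest transcript level on every scale. Ntf3 (ENSMUSG00000049107, chromosome 6) stood at 0.0792 RPKM (interval 0.0743 to 0.0843), from an estimated 973 reads. Its level per kilobase of exon was 3.03 (2.84 to 3.22). Its standing moves with the unit, since its short transcripts come from a gene of 65.5 kb with 1.71 kb of exon: 42.4% of protein-coding genes were below it as deposited and 57.8% per kilobase of exon.

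Bdnf (ENSMUSG00000048482, chromosome 2), the ligand best known for its induction by neuronal activity, stood at 0.0333 RPKM (0.0298 to 0.0371), from an estimated 327 reads in all 3 libraries together. Its level was 0.280 per kilobase of exon (0.251 to 0.312), with 37.7% of protein-coding genes below it. It was thus expressed at a measurable but low level. Bdnf was 0.421 times Ntf3 in deposited RPKM (0.370 to 0.477) and 0.0926 times Ntf3 per kilobase of exon (0.0815 to 0.105). Ntf3 was the higher of the pair with each of the gene lengths tried.

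Ntf5 (ENSMUSG00000074121, chromosome 7), which encodes neurotrophin-4, stood at 0.00616 RPKM. That is the worth of 4 reads in 188 M: among combinations of up to 7 reads per library, only 1 came within 0.5% of its value, with 1, 2 and 1 reads. The interval on 4 reads runs from 1.09 to 10.2 reads, or 0.00167 to 0.0157 RPKM, and a gene with no read could still have had 3. Its level is therefore close to the limit of detection. It stood at 0.00809 per kilobase of exon (0.00219 to 0.0206), below Bdnf by far more than counting error.

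Of the Trk receptors, TrkB stood well above every ligand, while TrkC lay near Ntf3. Ntrk2 (ENSMUSG00000055254, chromosome 13), the TrkB gene, stood at 0.497 RPKM (0.492 to 0.503), from an estimated 30543 reads. Its level was 8.44 per kilobase of exon (8.34 to 8.53), and 75.7% of protein-coding genes were below it. The gene spans 327 kb, and GENCODE M21 gives it 10 transcripts. Other annotated genes overlap it, among them 4930415C11Rik, which spans 29198 bases on the opposite strand. None of these overlapping genes had a listed value, so their part in the Ntrk2 reads is not known. Forms with and without the kinase part are known for both TrkB and TrkC, and 1 value per gene does not separate them.

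Ntrk3 (ENSMUSG00000059146, chromosome 7), the TrkC gene, stood at 0.129 RPKM (0.127 to 0.131) as deposited. Its estimate of reads is less certain than that of the others, because its annotated span differs between sources: 562 kb in GENCODE M21 and 401 kb in RefSeq, against agreement within 0.5% for the 6 other genes. The GENCODE span gave 13603 reads and 2.40 per kilobase of exon, and the RefSeq span gave 9706 reads and 1.71 per kilobase of exon. The sources used here do not give the span that the authors took. An antisense gene inside Ntrk3, Gm9885, stood at 4.59 reads per M reads, against 72.5 for Ntrk3 itself.

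TrkB exceeded TrkC in transcript level on each scale tried. Ntrk2 was 3.85 times Ntrk3 in deposited RPKM (3.78 to 3.93) and 3.51 times per kilobase of exon (3.44 to 3.58). It was 4.92 times with the RefSeq span of Ntrk3, and 3.14 times over the exons of coding transcripts alone. The order of the receptors was thus the reverse of that of their preferred ligands, with Ntf3 above Bdnf and Ntrk2 above Ntrk3.

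Each receptor was set against its ligand. Ntrk2 was 14.9 times Bdnf in deposited RPKM (13.4 to 16.7) and 30.1 times per kilobase of exon (27.0 to 33.7). Ntrk3 and Ntf3 were much closer: Ntrk3 was 1.63 times Ntf3 in deposited RPKM (1.53 to 1.74) and 0.794 times per kilobase of exon (0.744 to 0.848). That order turned with the choice of length, so which of the pair was higher cannot be said. All 3 ligands together held an estimated 6.95 reads per M reads, 1.54% of those of the 7 genes, and the Trk genes 235 reads per M reads (52.2%). With the RefSeq spans the ligands held 6.94 (1.61%) and the Trk genes 214.5 (49.9%). These values are not divided by length, so these shares describe reads and not transcripts.

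**Figure D2:**
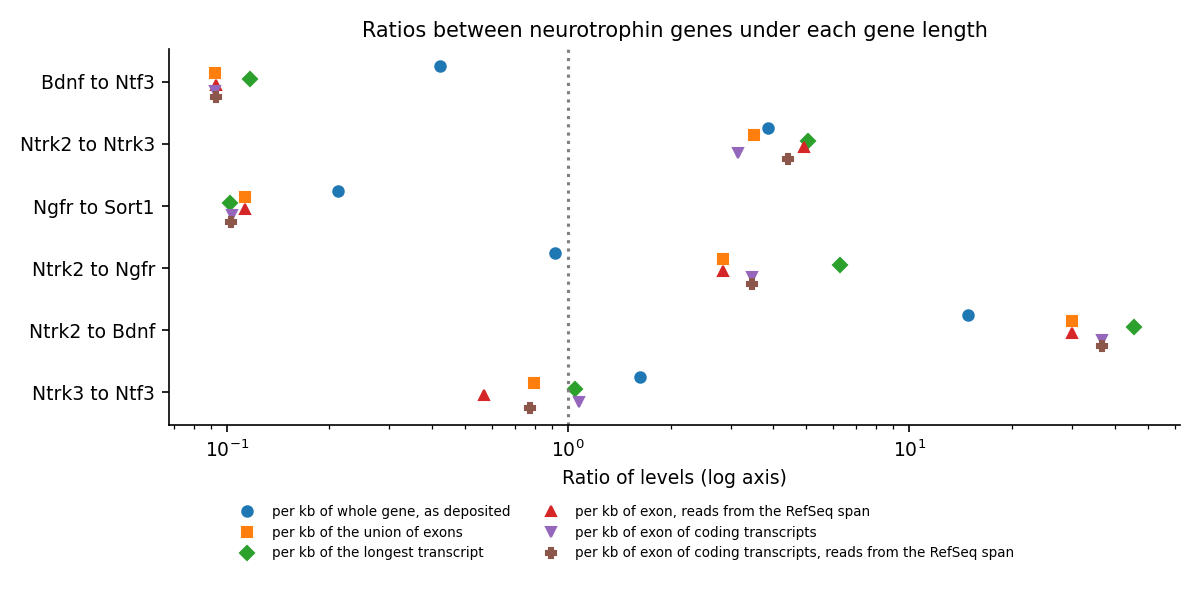
Ratio of the first to the second gene of each pair (log axis) with the deposited values and with 5 other gene lengths. Bdnf to Ntf3 stays below 1, Ntrk2 to Ntrk3 above 1 and Ngfr to Sort1 below 1 with all 6, while Ntrk2 to Ngfr and Ntrk3 to Ntf3 cross the dotted line at 1.

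Sort1 (ENSMUSG00000068747, chromosome 3) was the highest of the 7 genes on every scale, at 2.56 RPKM (2.53 to 2.58) from an estimated 37179 reads. It stood at 26.2 per kilobase of exon (25.9 to 26.4), and 93.1% of protein-coding genes were below it. Sortilin also has roles outside neurotrophin signalling, in sorting to lysosomes, which its level does not separate.

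Ngfr (ENSMUSG00000000120, chromosome 11), which has a single annotated transcript, stood at 0.541 RPKM (0.517 to 0.566) from an estimated 1921 reads, and at 2.97 per kilobase of exon (2.84 to 3.11). It was 0.211 times Sort1 in deposited RPKM (0.202 to 0.221) and 0.113 times per kilobase of exon (0.108 to 0.119). Ngfr and Ntrk2 were neighbours as deposited, with Ntrk2 at 0.919 times Ngfr (0.877 to 0.963), a small difference for which no spread between libraries is known. Per kilobase of exon Ntrk2 was 2.84 times Ngfr (2.71 to 2.98). Ngfr and Ntf3 had overlapping counting intervals per kilobase of exon and could not be placed in order there.

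**Figure D3:**
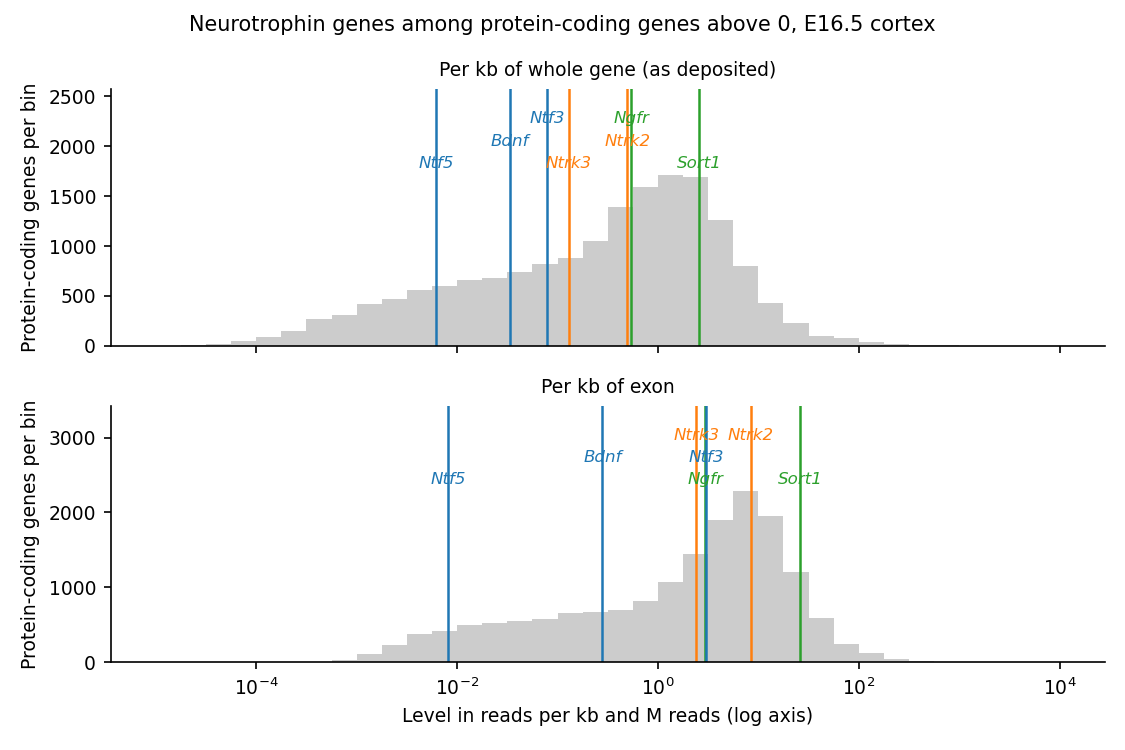
Number of protein-coding genes above 0 per bin of level (log axis), as deposited (top) and per kilobase of exon (bottom), with the 7 genes as coloured lines (blue ligands, orange Trk receptors, green p75 and sortilin). Ntf5, Bdnf, Ntf3, Ntrk3 and Ngfr lie to the left of the fullest bin in both. Per kilobase of exon Ntrk2 lies within it and Sort1 to its right.

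Bdnf is transcribed from many starts, and the single value for the gene sums them: GENCODE M21 lists 11 Bdnf transcripts with 9 different starts, and the RefSeq promoter table (GRCm38.p6) holds 7 Bdnf promoters. That table also holds 2 promoters of Ntf3 and 1 each of Ntrk2 and Ngfr. The 250 bases before each of these 11 starts were searched on both strands for the cAMP response element TGACGTCA, its variant TCACGTCA, the E-box CACGTG bound by USF factors, the TATAAA box and the GC box GGGCGG; none of these words contains another of them. The variant element was present in 1 of the 11, a Bdnf promoter, where 0.350% of 32851 promoters hold it. It is shown because Bdnf is the member known as an activity-regulated gene, with the match in capitals, and lies at GRCm38.p6 chr2:109692372-109692431 on the plus strand; the match begins 38 bases before the annotated start.
Bdnf promoter stretch: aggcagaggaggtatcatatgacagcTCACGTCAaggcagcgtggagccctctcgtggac
The full element TGACGTCA was in 0 of the 11 (1.55% of all promoters), the TATAAA box in 0 (12.4%), CACGTG in 1, of Ntf3 (6.02%), and GGGCGG in 5 (32.7%). These matches describe the letters of the windows and were not tied to any level, since values per start were not given.

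Lists of genes around the pathway, each chosen by name, are given next beside protein-coding genes as a whole, of which 31.6% reached 1 RPKM and 54.1% reached 1 per kilobase of exon, with medians above 0 of 0.450 RPKM and 3.001 per kilobase of exon. The genes named as highest or lowest of a list are so in deposited RPKM, and their order can differ per kilobase of exon. Of 12 transcription regulators listed for Bdnf, 8 reached 1 RPKM (66.7%, against 31.6%), with a median of 1.82 RPKM against 0.450. Per kilobase of exon 9 reached 1 (75%, against 54.1%), with a median of 8.68. Whether each of the 12 acts on Bdnf was not tested. The E-box factors Usf1 and Usf2 stood at 11.7 and 6.70 RPKM and the CREB coactivator Crtc2 at 3.51 RPKM, while Bhlhe41, a repressor of the basic helix-loop-helix type, was lowest at 0.138 RPKM.

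Of 21 Trk adaptors and effectors, which carry signals away from the receptors, 11 reached 1 RPKM (52.4%, against 31.6% of protein-coding genes), with a median of 1.03 RPKM. On the exon scale 19 reached 1 (90.5%, against 54.1%), with a median of 6.95 per kilobase of exon. The adaptor Sh2b1 stood at 9.87 RPKM, Kidins220, a membrane scaffold that binds Trk receptors and p75, at 8.30 and the phospholipase gene Plcg1 at 5.21 RPKM. The lowest was Plcg2, the form known from blood cells, at 0.00634 RPKM. Of 14 measured Trk regulators and traffic genes, 8 reached 1 RPKM (57.1%, against 31.6% of protein-coding genes), with a median of 2.11 RPKM, and 13 reached 1 per kilobase of exon (92.9%, against 54.1%), with a median of 15.2. Cdk5r1, the activator of the neuronal kinase Cdk5, stood at 104.8 RPKM, Islr2, a membrane protein that binds Trk receptors, at 77.1 and Cdk5 at 12.8 RPKM, with the endocytosis gene Ehd4 lowest at 0.0353 RPKM.

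Among p75 partners and effectors, 12 of 16 reached 1 RPKM (75%, against 31.6% of protein-coding genes), with a median of 1.94 RPKM, and all 16 reached 1 per kilobase of exon (against 54.1%), with a median of 10.4. Maged1 (101 RPKM) and Bex3 (68.3 RPKM), whose products bind the inner part of p75, were far above Ngfr itself. Arhgdia, an inhibitor of small GTPases, stood at 63.4 RPKM and the kinase gene Ripk2 was lowest at 0.101 RPKM. Most of these proteins also act outside the p75 pathway.

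Precursor processing and secretion genes reached 1 RPKM about as often as protein-coding genes in general: 5 of 15 did (33.3%, against 31.6%), and 8 did per kilobase of exon (53.3%, against 54.1%). The matrix metalloprotease genes Mmp3 and Mmp7 were listed at 0, and the medians of the 13 above 0 were 0.571 RPKM and 2.42 per kilobase of exon. The vesicle transport gene Hap1 stood at 3.61, the granule gene Scg2 at 3.04 and the sorting receptor and peptidase gene Cpe at 2.23 RPKM. Cpe stood at 86.1 per kilobase of exon, above Sort1. Plasminogen (Plg), whose active form can cut proBDNF outside the cell, was lowest above 0 at 0.000628 RPKM, from an estimated 5 reads.

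The relatives of sortilin were lower than Sort1. Sorl1 stood at 0.704 RPKM, Sorcs2 at 0.0321, Sorcs1 at 0.0304 and Sorcs3 at 0.00869 RPKM. Per kilobase of exon these became 9.92, 1.39, 1.93 and 0.731, so that each was below Sort1 on both scales. Their median was 0.0312 RPKM and 1.66 per kilobase of exon.

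Of 10 genes that neurotrophins are known to induce, 3 reached 1 RPKM (30%, against 31.6% of protein-coding genes) and 6 reached 1 per kilobase of exon (60%, against 54.1%). Both shares were near those of protein-coding genes, as were the medians of 0.559 RPKM and 2.34 per kilobase of exon. The Ras-MAP kinase feedback genes Dusp6 (6.71 RPKM) and Spry2 (3.97 RPKM) and the secreted peptide gene Vgf (1.83 RPKM) were highest in deposited RPKM. That order turned per kilobase of exon, with Spry2 at 9.26, Dusp6 at 9.12, Homer1, a synaptic scaffold gene named after its value was seen, at 7.02 and Vgf at 4.29. Egr2 was lowest at 0.0244 RPKM.

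In the GDNF family of trophic factors 1 of 9 genes reached 1 RPKM (11.1%, against 31.6% of protein-coding genes), with a median of 0.0436 RPKM, and 3 reached 1 per kilobase of exon (33.3%, against 54.1%), with a median of 0.297. The highest was the receptor gene Gfra4 at 4.84 RPKM, followed by the ligand gene Pspn at 0.621 and the receptor gene Gfra2 at 0.0665, with Gfra3 lowest at 0.000153 RPKM, the worth of 1 read. Per kilobase of exon Pspn (0.736) stood below Gfra2 (1.69). Of the CNTF and LIF family 0 of 7 reached 1 RPKM, with a median of 0.247 RPKM, and 3 reached 1 per kilobase of exon (42.9%, against 54.1%), with a median of 0.963. The shared receptor gene Il6st stood at 0.632, Cntfr at 0.604 and the ligand gene Ctf1 at 0.322, with Lif lowest at 0.00221 RPKM. Per kilobase of exon Cntfr (8.59) stood above Il6st (2.62).

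**Figure D4:**
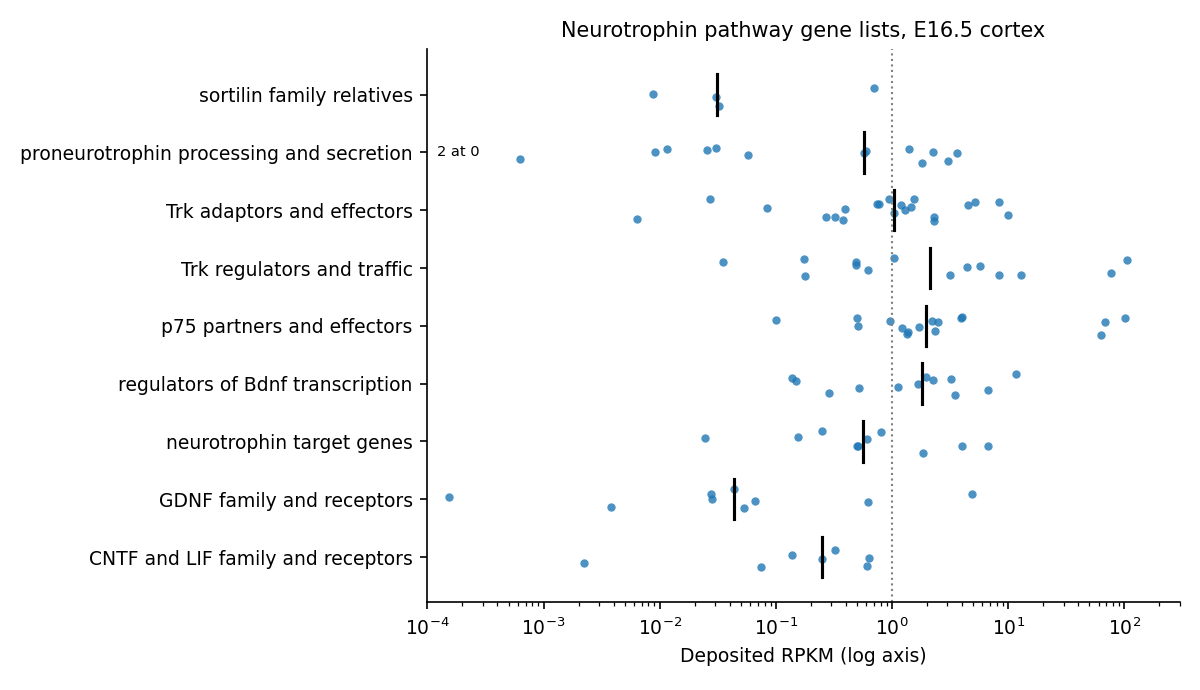
Deposited RPKM (log axis) of each gene above 0 in 9 lists around the neurotrophin pathway, with the median of each list as a black bar and 1 RPKM as a dotted line. The p75 and Trk signalling lists have medians from 1.03 to 2.11 RPKM, while the sortilin relatives and the GDNF family lie lowest on this scale; per kilobase of exon the sortilin relatives (median 1.66) lie above the CNTF and LIF family (0.963) and the GDNF family (0.297).

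The tissue label was checked against its markers. All 7 cortical genes, such as Tbr1 and Neurod6, reached 1 RPKM, from 1.57 to 194 RPKM, as did all 7 radial glia genes. Sensory ganglia are rich in Trk receptors, and 0 of their 8 marker genes reached 1 RPKM. Their summed level was 0.395 RPKM, with Prph the highest at 0.203 RPKM. Per kilobase of exon Scn9a was the highest of them at 0.853, from an estimated 2044 reads. None of the 4 matched genes of cholinergic basal forebrain neurons, known for p75, reached 1 RPKM, with a summed level of 0.0393 RPKM and the defining gene Chat at 0.000403 RPKM. Of subplate and Cajal-Retzius genes 2 of 8 reached 1 RPKM and 5 of 8 reached 1 per kilobase of exon, and of endothelial genes 1 of 6 and 6 of 6, beside 31.6% and 54.1% of protein-coding genes. Of 7 meningeal genes 0 reached 1 on either scale, as for the ganglion and cholinergic genes. The part of each cell type in the level of the 7 genes was not tested, and in this bulk tissue few cells with much of a transcript and many cells with little cannot be told apart.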

How the data were processed

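The data are RNA-seq values of mouse cortex at E16.5. The authors deposited 1 column of RPKM for this group, a mean over its libraries per the file header; 3 libraries carry its label. The submitters' processing notes name DESeq 1.16.0, HTSeq 0.6.0, Cuffdiff 2.0.2, TopHat2 2.0.9 and Bowtie2 2.1.0, and the builds mm9 and NCBIM37, without saying what each was used for. The step that made the RPKM values was not stated in the sources used here.

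Symbols, spans and exons came from GENCODE M21, which is on GRCm38 and not on the authors' build, matched by gene ID for 32919 of 37991 IDs. Reads per M reads were RPKM times span, and reads were those times the summed depth, read from the spacing of low values. The recovery of depth and reads was tried on counts simulated over the same GENCODE spans. That trial cannot show whether these spans match those the authors used. Intervals are exact Poisson intervals, or exact binomial ones for ratios, at 95%. With 1 mean column, no test was run. The 7 genes and the lists were chosen with earlier results of these data known. Named beyond the 7 are, of each list, the 3 highest and the lowest gene above 0, or all where 6 or fewer were measured; Mmp3, Mmp7 and the marker genes were named after their values were seen. Some genes of the lists are not reported here. Dynlt1f, Slc18a3 and Lhx8 were not matched. Sequences came from GENCODE M21 and, for promoters, RefSeq. Python 3.11.15, numpy 2.4.6, pandas 2.3.3 and scipy 1.17.1 were used.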

Additional observations from a re-analysis of the deposited data

How the results depend on the processing

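No paired analysis was possible because the group is given as 1 mean column, which also left no single library to leave out. Of the lengths, the RefSeq span, the exons of coding transcripts and both together were chosen after seeing the data. Values follow in this order: union of exons, longest transcript, a pseudocount of 0.1 on deposited RPKM, union of exons with the RefSeq span, exons of coding transcripts, and those with the RefSeq span. Bdnf to Ntf3, 0.421 as deposited, was 0.0926, 0.117, 0.744, 0.0929, 0.0926 and 0.0929. Ntrk2 to Ntrk3, 3.85 as deposited, was 3.51, 5.06, 2.61, 4.92, 3.14 and 4.41. Ngfr to Sort1, 0.211 as deposited, was 0.113, 0.102, 0.241, 0.113, 0.104 and 0.103. Ntrk2 to Bdnf, 14.9 as deposited, was 30.1, 45.6, 4.48, 30.1, 36.7 and 36.7. These 4 ratios stayed on the same side of 1. Ntrk2 to Ngfr turned from 0.919 to 2.84, 6.27, 2.85, 3.46 and 3.47 under the 5 lengths and was 0.932 with the pseudocount. Ntrk3 to Ntf3, 1.63 as deposited, turned to 0.794 with the union of exons, 0.568 with the RefSeq span and 0.773 with that span and coding transcripts. It was 1.05, 1.28 and 1.08 with the longest transcript, the pseudocount and coding transcripts. A longer exon sequence lowers a level by construction, and Ntf3 has the least exon for its span.

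The count of the 7 genes at the threshold, 1 at 1 RPKM, was 2 at 0.5 RPKM and 1 at 2 RPKM, and 5 under each of the 4 exon-based lengths tried. The share of all protein-coding genes at 1 or more also rose, from 31.6% as deposited to 54.1% with the union of exons. Their shares at the other thresholds and lengths are not given here, so those counts cannot be told from a shift of the whole scale. The union of exons raised the number of genes at 1 or more from 0 to 3 among sortilin relatives, from 5 to 8 in processing and secretion, from 11 to 19 among Trk adaptors, from 8 to 13 among Trk regulators, from 3 to 6 among target genes, from 1 to 3 in the GDNF family and from 0 to 3 in the CNTF and LIF family. The median of the processing list was 0.0577 RPKM with its genes at 0 included.

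The percentage of all listed IDs below each gene was 55.2 for Bdnf, 61.6 for Ntf3, 45.7 for Ntf5, 75.1 for Ntrk2, 64.8 for Ntrk3, 75.9 for Ngfr and 89.7 for Sort1. Against protein-coding genes it was 36.7, 42.4, 27.2, 58.8, 45.9, 59.98 and 82.4, and per kilobase of exon, against all genes with a length, 57.2, 73.1, 35.7, 84.8, 71.0, 72.9 and 95.7. Depth limits Ntf5, at 4 reads.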
